A study of Homo sapiens with 6 samples.

Results

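Aminoacyl-tRNA synthetases, the enzymes that load each amino acid onto its transfer RNA, were followed in MV4;11 leukemia cells given MI-389, an inhibitor of the contact between menin and MLL. The members were 38 listed genes, namely 19 cytosolic synthetases, 16 mitochondrial synthetases and 3 scaffold proteins of the multisynthetase complex. Every probe set of the array annotated to 1 of these genes alone was taken, with earlier gene symbols counted as the same gene. Of the 38 members 36 had a value, on 93 of the 49293 probe sets tested, among 18239 genes in all. AIMP2 and EEF1E1, both scaffold proteins, were not analysed here.

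MV4;11 is an established human leukemia line with a rearranged MLL gene (KMT2A). One group received 4 µM MI-389 and the other the solvent DMSO alone, for 6 days, with 0.25% DMSO in both groups and new medium on day 3. Each group held 3 arrays, and all 6 came from the same line, so the comparison asks what the inhibitor changes in this single line. The titles number the arrays of each group as biological replicates. Whether these were separately grown cultures is not stated, so the spread among these arrays may be technical in part. The p-values of limma rest on that spread, which limma draws for each gene towards a value shared by all genes.

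Each synthetase recognises 1 amino acid and its transfer RNAs. Cytosolic and mitochondrial translation are mostly served by enzymes from separate nuclear genes, and by convention the suffix of the symbol tells them apart. GARS1 and KARS1 supply both compartments, EPRS1 carries the glutamate and the proline activity in 1 protein, and FARSA and FARSB are the subunits of 1 phenylalanine enzyme. Several cytosolic enzymes are held in the multisynthetase complex by the scaffolds AIMP1, AIMP2 and EEF1E1. When amino acids run short, uncharged transfer RNA activates the kinase GCN2 (EIF2AK4), the transcription factor ATF4 accumulates, and ATF4 is known to induce genes of amino acid synthesis and uptake together with many cytosolic synthetases.

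All values are RMA values on the log2 scale as deposited, and a change is the MI-389 mean minus the DMSO mean, so that -1 is a level 2-fold lower. Each gene is read by its brightest probe set unless stated otherwise. "Rose" and "fell" are used where limma's adjusted p over all genes was under 0.05. Of all 18239 genes 34.1% passed, 18.4% higher and 15.7% lower, with a median change of 0.02. Control probe sets with no matching human sequence reached at most 5.49 on any array once the set of highest GC content was set aside, and that level is used here as a mark of background. The line's markers PTPRC, FLT3, MYB and CD4 lay above that level, while SPI1 and MPO were below it in both groups and KIT with MI-389. CD33 was not analysed here. Of 11 T, NK and B cell markers 8 were below it in both groups, the others being NCAM1, PAX5 and NKG7, and so were all 6 erythroid and megakaryocyte markers measured. Monocyte markers moved with the treatment: 11 of 13 rose and 1 fell, and their mean log2 level was 5.37 to 5.47 on the DMSO arrays and 7.62 to 7.71 on the MI-389 arrays, with CD14, FCN1, CD163 and VCAN below 5.49 in both groups. Cell cycle genes also moved, with 9 of 12 higher and 0 lower. The part of either in the changes below was not tested. In a bulk sample fewer cells of a type and less RNA per cell cannot be told apart.

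The cytosolic synthetases were mostly lower with MI-389, while the mitochondrial ones were divided. Of 19 cytosolic enzymes 13 fell and 1 rose, with a median change of -0.95, and 9 of them fell at least 2-fold, as 1.79% of all genes did. Of 16 mitochondrial enzymes 4 fell and 5 rose, with a median of 0.08, and 0 fell at least 2-fold. With the dimmest genes left out, 3221 of 10943 genes were called higher and 2845 lower. In that setting 7 of the 16 mitochondrial enzymes were called higher and 4 lower. Whether the mitochondrial class differs from those genes was not tested. The scaffold AIMP1 fell. The groups did not overlap for 16 of the 19 cytosolic and 14 of the 16 mitochondrial enzymes, where 45.3% of all genes did not overlap.

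**Figure D1:**
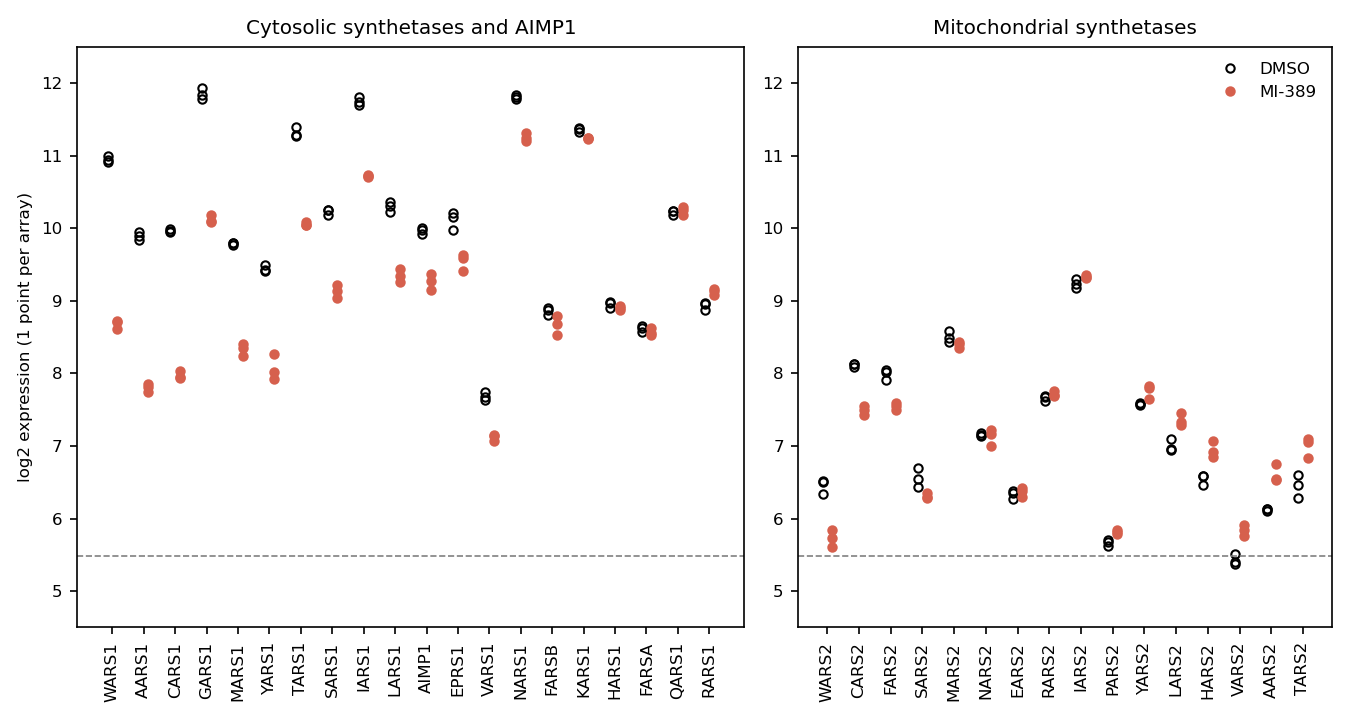
Log2 expression of each member on every array, with DMSO as open black circles and MI-389 as filled red circles; genes are ordered by their change, and the dashed line marks 5.49, the level reached by the nonspecific control probe sets. WARS1, at the left of the first panel, lies near 10.95 with DMSO and 8.68 with MI-389, while QARS1 overlaps between the groups.

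WARS1, the tryptophan enzyme, which is also known as an interferon-inducible gene, had the largest fall of all members. Its log2 level was 10.99, 10.91 and 10.95 on the DMSO arrays and 8.73, 8.71 and 8.61 on the MI-389 arrays. Every MI-389 array lay more than 2 log2 units below every DMSO array, and the change of -2.27 (SE 0.06, adjusted p = 2.01e-09) left 20.8% of the DMSO level. Among all genes 0.241% changed further downwards. AARS1, which charges alanine, stood at 9.95, 9.84 and 9.89 with DMSO and at 7.86, 7.81 and 7.75 with MI-389. That is a 4.26-fold fall (log2 change -2.09, SE 0.06, adjusted p = 3.51e-09), with groups far apart. CARS1, which charges cysteine, went from 9.99, 9.97 and 9.95 to 7.96, 8.03 and 7.94. It fell 3.99-fold (SE of the log2 change 0.05, adjusted p = 2.88e-09), with each group tightly packed and far from the other.

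GARS1, the glycine enzyme of both compartments, had DMSO values of 11.94, 11.84 and 11.78 and MI-389 values of 10.10, 10.09 and 10.18. It fell 3.32-fold (log2 change -1.73, SE 0.06, adjusted p = 1.55e-08) from 1 of the highest levels recorded for a member. MARS1, which charges methionine to initiator and elongator transfer RNA, went from 9.80, 9.76 and 9.80 to 8.41, 8.25 and 8.36. YARS1, the tyrosine enzyme, went from 9.50, 9.42 and 9.41 to 7.93, 8.27 and 8.03, where MI-389 replicate 2 was the highest of its group. MARS1 changed by -1.45 (SE 0.06) and YARS1 by -1.37 (SE 0.09), and for both the groups were apart. TARS1, which charges threonine, went from 11.39, 11.29 and 11.27 to 10.09, 10.05 and 10.05, a fall of 2.39-fold (log2 change -1.26, SE 0.06, adjusted p = 9.14e-08). All 3 of its probe sets were lower, from -1.30 to -0.92, the last being less than 2-fold.

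The other cytosolic enzymes that fell did so by smaller amounts. SARS1, for serine and selenocysteine transfer RNA, changed by -1.09 (SE 0.06), IARS1, for isoleucine, by -1.03 (SE 0.05) and LARS1, for leucine and also known as a leucine sensor of mTORC1, by -0.95 (SE 0.06). EPRS1 changed by -0.57 (SE 0.08), VARS1, for valine, by -0.57 (SE 0.06) and NARS1, for asparagine, by -0.56 (SE 0.05). The largest adjusted p among these 6 was that of EPRS1, 2.93e-04. EPRS1 and NARS1 were read as lower by every probe set they had, from -0.95 to -0.57 on the 2 of EPRS1 and from -1.05 to -0.56 on the 4 of NARS1.

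The remaining 6 cytosolic enzymes were not called lower. QARS1, which charges glutamine, had DMSO values of 10.24, 10.24 and 10.19 and MI-389 values of 10.25, 10.30 and 10.19, which overlap. Its change was 0.02 (95% interval -0.11 to 0.15). FARSA changed by -0.04 (interval -0.17 to 0.08) and HARS1, for histidine, by -0.05 (interval -0.17 to 0.07). KARS1, for lysine, stood at 11.39, 11.33 and 11.37 with DMSO and 11.25, 11.24 and 11.23 with MI-389. The KARS1 groups did not overlap, but the change of -0.12 (interval -0.24 to -0.01) missed the threshold (adjusted p = 0.0960), and FARSB, at -0.20 (interval -0.36 to -0.03, adjusted p = 0.0641), missed it too. Without MI-389 replicate 2, its highest treated array, FARSB passed (-0.26, adjusted p = 0.0203). Other probe sets of HARS1 and KARS1 did pass: 2 of 3 for HARS1, to -0.34, and 1 of 2 for KARS1, at -0.29, and with the mean of all probe sets both genes were called lower, at -0.21 each. RARS1, which charges arginine, was the 1 cytosolic enzyme called higher, at 8.98, 8.88 and 8.96 with DMSO and 9.09, 9.13 and 9.17 with MI-389. Its change of 0.19 (SE 0.06, adjusted p = 0.0251) lost the call when DMSO replicate 2, DMSO replicate 3, MI-389 replicate 2 or MI-389 replicate 3 was left out (adjusted p 0.111, 0.0525, 0.0582 and 0.0595). The other probe set of RARS1 was higher by 0.24 (SE 0.06, adjusted p = 0.00867 by limma over all probe sets).

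Grouped by how the enzymes work, the falls were spread over all classes. The synthetases form 2 structural classes of catalytic domain. Of 9 cytosolic enzymes of class I 7 fell and 1 rose (median -1.03), and of 9 of class II 5 fell and 0 rose (median -0.56), EPRS1 having both. Of the 7 measured enzymes that belong to the multisynthetase complex, EPRS1, IARS1, LARS1 and MARS1 fell, RARS1 rose, and QARS1 and KARS1 passed in neither direction (median -0.57). Of the 12 enzymes outside it 9 fell and 0 rose (median -1.17). AIMP1, the scaffold that is also secreted as a cytokine precursor, stood at 9.92, 10.00 and 9.98 with DMSO and 9.16, 9.27 and 9.37 with MI-389. It fell by 0.70 on the log2 scale (SE 0.07, adjusted p = 1.82e-05), and all 5 of its probe sets were lower, from -0.70 to -0.29. The smallest change was that of the probe set taken when the suffixes _x_at, _s_at or _a_at came last.

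Because cytosolic synthetase genes are known targets of ATF4, the promoters were searched for the core of the C/EBP-ATF response element, TGATGNAA, on both strands (TTNCATCA on the other). The windows were those of the RefSeq promoter table of GRCh38.p14, from 250 bases before to 50 bases after each listed transcription start. The table covers 16 cytosolic synthetases, and 7 of them held the element, all of them among the 10 that fell. It was found in 0 of the 6 that were not called lower. Of these 6, HARS1 and KARS1 were called lower with the mean of all probe sets, and FARSB passed with 1 array left out. The element was in 1 of 14 mitochondrial synthetases, in 0 of 3 scaffolds and in 522 of 14492 genes with a value and a promoter (3.60%). Over all 35116 promoters the share was 3.62%. YARS1, LARS1, VARS1, AARS2 and VARS2 were not searched here. The 7 cytosolic matches are shown on the strand of the gene with the element in capitals and 11 bases on each side, since they carry the feature shared by these genes.
AARS1, chr16:70289675-70289704, minus strand: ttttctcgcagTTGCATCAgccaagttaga
CARS1, chr11:3057407-3057436, minus strand: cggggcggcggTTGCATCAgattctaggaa
GARS1, chr7:30594834-30594863, plus strand: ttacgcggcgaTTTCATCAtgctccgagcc
IARS1, chr9:92293692-92293721, minus strand: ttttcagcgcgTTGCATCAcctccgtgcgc
MARS1, chr12:57488053-57488082, plus strand: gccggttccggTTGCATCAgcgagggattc
NARS1, chr18:57621804-57621833, minus strand: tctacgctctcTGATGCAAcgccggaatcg
TARS1, chr5:33440956-33440985, plus strand: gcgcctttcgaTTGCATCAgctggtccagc

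Of these 7, 6 held the same letters, TGATGCAA or its complement, and GARS1 held the complement of TGATGAAA. The element lay before the start in AARS1, IARS1 and GARS1, with 179, 5 and 25 bases in between, and the GARS1 match lay after another listed start further upstream. It ran across the start in CARS1 and MARS1 and began at position 15 after it in NARS1 and at position 3 in TARS1. WARS1, SARS1 and EPRS1 fell and had no match in their windows. The mitochondrial match was that of YARS2, with 1 other letter (TGATGGAA), and YARS2 missed the threshold with all 6 arrays (adjusted p = 0.0503). The element was also in 5 of the 21 amino acid response genes covered, ASNS, ATF3, CHAC1, SLC3A2 and CEBPG, and among 243 genes that fell at least 2-fold it was found in 32 (13.2%). A match is a description of letters in this window, and binding was not measured here.

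**Figure D2:**
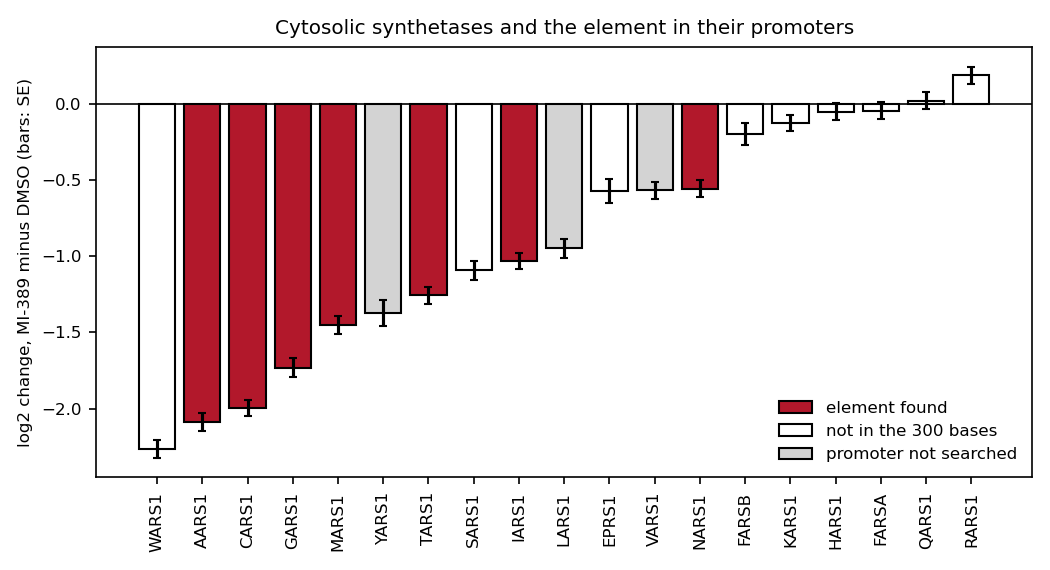
Log2 change of the 19 cytosolic synthetases with SE bars, coloured by whether the C/EBP-ATF element was found in the promoter window. The 7 filled red bars, from AARS1 at -2.09 to NARS1 at -0.56, all lie below 0, and the 6 bars at the right, from FARSB at -0.20 to RARS1 at 0.19, are white. The grey bars, YARS1, LARS1 and VARS1, were not searched.

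Among the mitochondrial synthetases, WARS2, the tryptophan enzyme, fell most. It stood at 6.34, 6.52 and 6.50 with DMSO and 5.84, 5.73 and 5.61 with MI-389, and changed by -0.73 (SE 0.08, adjusted p = 3.55e-05). CARS2, for cysteine and also known for making persulfides, went from 8.13, 8.09 and 8.13 to 7.50, 7.42 and 7.56, a change of -0.63 (SE 0.06). The other 2 probe sets of CARS2, below 5.49 in both groups, did not pass (-0.22 and 0.17), and the mean of all 3 changed by -0.23 (adjusted p = 0.00424). FARS2, for phenylalanine, went from 8.04, 7.92 and 8.02 to 7.59, 7.55 and 7.50, a change of -0.45 (SE 0.06). In these 3 genes all MI-389 arrays lay below all DMSO arrays. SARS2, for serine, went from 6.69, 6.43 and 6.55 to 6.30, 6.35 and 6.28. The DMSO arrays of SARS2 were spread over more than the change itself, -0.24 (SE 0.07, adjusted p = 0.0233), and the call was lost without DMSO replicate 1, DMSO replicate 3, MI-389 replicate 1 or MI-389 replicate 3 (adjusted p 0.0885, 0.0554, 0.0600 and 0.0623). It was also lost with the mean of its 2 probe sets (-0.13) and with the suffixes _x_at, _s_at or _a_at last (-0.020).

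The largest rise was that of TARS2, the mitochondrial threonine enzyme. It stood at 6.60, 6.47 and 6.29 with DMSO and 6.84, 7.05 and 7.10 with MI-389, and rose by 0.54 (SE 0.09, adjusted p = 0.00115). AARS2, for alanine, went from 6.14, 6.13 and 6.10 to 6.75, 6.53 and 6.55, a rise of 0.48 (SE 0.07), and its second probe set rose by 0.71. VARS2, for valine, went from 5.41, 5.37 and 5.52 to 5.84, 5.76 and 5.91. Its DMSO mean of 5.43 lay under 5.49, so its rise of 0.40 (SE 0.06) is at least 1.27-fold when set against that level. The other probe sets of VARS2 alone lay below 5.49 in both groups. Those that also name GTF2H4 lay above it and did not pass (0.09 and -0.04). HARS2, for histidine, went from 6.58, 6.59 and 6.46 to 6.92, 6.85 and 7.06, and rose by 0.40 (SE 0.07). LARS2, for leucine, went from 6.95, 6.96 and 7.09 to 7.29, 7.45 and 7.33, and rose by 0.36 (SE 0.07). The rises of TARS2, AARS2, HARS2 and LARS2 were 1.28-fold to 1.46-fold, and in all 5 genes the groups were apart. With the mean of all probe sets VARS2 rose by 0.23. They depend on the scaling of the arrays: centred on the hybridisation spike-ins, which were 0.25 higher on the MI-389 arrays, VARS2, HARS2 and LARS2 lost their calls (changes of 0.15, 0.15 and 0.10), TARS2 and AARS2 rose by 0.29 and 0.23, and the class counted 8 lower and 2 higher. The same centring left the cytosolic class with 18 lower and 0 higher, and RARS1 at -0.06. Against it, all genes counted 1397 higher and 11056 lower (11.2% of the calls higher, against 53.9%), with a median change of -0.23.

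The other 7 mitochondrial enzymes did not pass with all arrays and the brightest probe sets. YARS2, for tyrosine, was nearest, at 7.58, 7.59 and 7.57 with DMSO and 7.65, 7.83 and 7.79 with MI-389, which do not overlap (change 0.18, interval 0.04 to 0.31, adjusted p = 0.0503). It passed without MI-389 replicate 1, the lowest treated array (0.23, adjusted p = 0.0168), and when the mean of all probe sets stood for every gene (adjusted p = 0.0270). PARS2, for proline, differed by 0.15 (interval 0.03 to 0.27) and MARS2, for methionine, by -0.11 (interval -0.25 to 0.02). IARS2, RARS2, EARS2 and NARS2 differed by 0.10, 0.06, 0.04 and -0.02, and the widest of their intervals was that of NARS2, -0.17 to 0.12.

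The cytosolic and mitochondrial enzymes of each amino acid were then set side by side in 17 pairs, EPRS1 having a mitochondrial counterpart for each of its activities and FARS2 being paired with both subunits. The log2 ratio of the pair was taken on each array, so that any shift common to both genes cancels, and the difference between treatments was computed from these ratios. The SE of a pair comes from its own ratios alone. That of a gene is moderated by limma over all genes, so the SEs of pairs and of genes are not alike. In 14 of 17 pairs the cytosolic enzyme changed further downwards than its counterpart, and in all 14 the arrays of the 2 groups did not overlap. Nor did they overlap in 2 of the 3 pairs that went the other way, and 45.3% of single genes did not overlap. The share over other gene pairs was not computed. The median difference over all pairs was -0.97. With 3 arrays against 3 the two-sided exact permutation test cannot give a p under 0.10, which 16 pairs reached and RARS1 with RARS2 did not (0.20), so no pair can pass a threshold of 0.05 (Benjamini-Hochberg adjusted over the 17 pairs, 0.106 for the 16).

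The alanine pair differed most, with a change of -2.09 for AARS1 and of 0.48 for AARS2, a difference of -2.57 (SE 0.06). In the threonine pair TARS1 fell and TARS2 rose, which gave -1.80 (SE 0.11). For tyrosine, YARS1 fell while YARS2 narrowly missed the threshold, with -1.55 (SE 0.07). In 4 pairs the cytosolic enzyme fell and the mitochondrial one rose, those of alanine, threonine, leucine (-1.31, SE 0.09) and valine (-0.97, SE 0.07). The valine pair gave -0.36 with the mean of all probe sets. For VARS1 and VARS2 alike, all probe sets but the brightest were below 5.49 in both groups. In 3 pairs both fell, with the cytosolic enzyme falling further: tryptophan (-1.54, SE 0.09), cysteine (-1.37, SE 0.07) and serine (-0.85, SE 0.06). In the other 6 pairs with a cytosolic fall the mitochondrial enzyme did not pass, namely EPRS1 with EARS2 (-0.61, SE 0.10, and -0.93 with the mean of all probe sets) and with PARS2, IARS1, MARS1, NARS1 and YARS1 with theirs.

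The histidine pair differed by -0.45 (SE 0.10), and by -0.70 (SE 0.04) with the mean of all probe sets, since 2 of the 3 of HARS1 were lower. The RefSeq starts of HARS1 and HARS2 lie 85 bases apart on opposite strands. The reverse order was seen for phenylalanine: FARS2 fell while FARSA and FARSB did not pass, which gave differences of 0.40 (SE 0.06) and 0.25 (SE 0.09). FARSB stood at 8.88, 8.90 and 8.81 with DMSO and at 8.68, 8.79 and 8.53 with MI-389, groups that do not overlap but whose treated arrays are spread. The arginine pair was closest to 0, at 0.13 (SE 0.06). RARS2 stood at 7.62, 7.69 and 7.67 with DMSO and 7.75, 7.70 and 7.70 with MI-389, a change of 0.06 that is smaller than the range of its DMSO arrays. Mitochondrial probe sets were dimmer, with DMSO means of 5.43 to 9.24 against 7.69 to 11.86, and RMA compresses differences of dim probe sets.

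**Figure D3:**
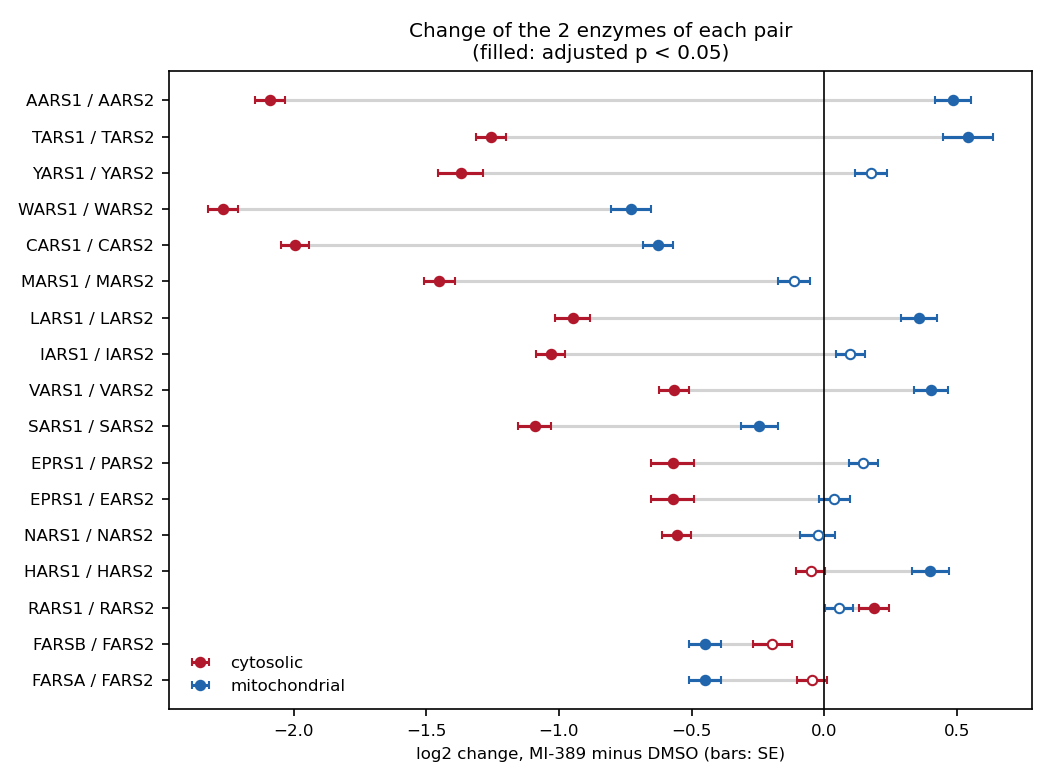
Log2 change of the cytosolic (red) and mitochondrial (blue) enzyme of each pair with SE bars, ordered by their difference, filled where the adjusted p was under 0.05. AARS1 and AARS2 lie furthest apart, at -2.09 and 0.48, and the order of the colours is turned in the last 3 lines, RARS1 and the pairs of FARS2.

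Each member was also read probe set by probe set. Of the 53 cytosolic probe sets 37 were lower and 2 higher, where 14.0% of all 49293 probe sets were lower, 14.0% higher and 28.0% either. Of the 35 mitochondrial ones 7 were lower and 11 higher. All 4 probe sets of IARS1 lay between -1.05 and -0.99, all 5 of MARS1 between -1.83 and -0.90 (the first of these, below 5.49 with MI-389, being the dimmest), and all 3 of CARS1 between -2.14 and -1.94. For WARS1 3 of 4 were lower, from -2.78 to -2.27, where the set at -2.78 was below 5.49 with MI-389. The other, below 5.49 in both groups, had the same level in each (difference 0.0051). For VARS1 1 of 4 was lower, and the other 3 were below 5.49 in both groups, so that the mean of all 4 changed by -0.14. EARS2 had 2 of 4 probe sets higher, at 0.26 and 0.32, both below 5.49, while its brightest did not pass. Of the 31 probe sets of members that did not pass, 15 were below 5.49 in both groups.

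**Figure D4:**
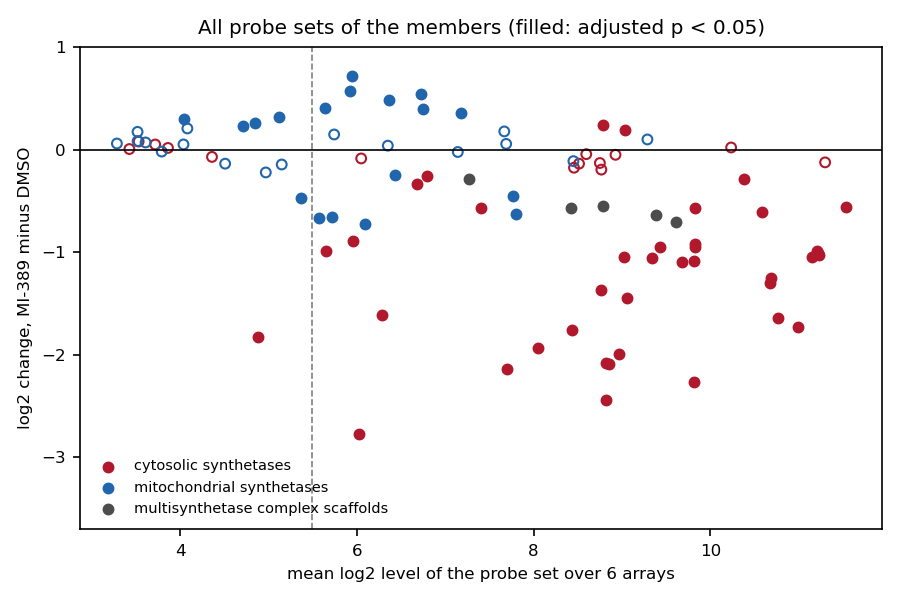
Log2 change against mean log2 level for the 93 probe sets of the members, coloured by class and filled where the adjusted p was under 0.05; the dashed line marks 5.49. The red cytosolic points spread down to -2.78, while the blue mitochondrial points stay between -0.73 and 0.71.

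Genes around the synthetases were read from further lists. Of all genes 15.7% fell and 18.4% rose. With the dimmest genes left out, 2845 of 10943 were called lower and 3221 higher. Whether the lists below differ from those shares was not tested. Of 10 other genes of transfer RNA charging 4 fell and 2 rose (median -0.03): DTD1 and AARSD1, a deacylase and an editing factor that remove wrongly attached amino acids, changed by -0.59 and -0.54, and GATB, of the mitochondrial amidotransferase that makes glutaminyl transfer RNA, rose by 0.27. MTFMT, which formylates the mitochondrial initiator, rose by 0.52 with both groups under 5.49. Of 21 genes of transfer RNA maturation 6 fell and 9 rose (median -0.01). The splicing endonuclease subunit TSEN15 (-1.18) and the RNase P and MRP subunit RPP40 (-0.93) fell most, and PRORP, the nuclease of mitochondrial RNase P, and POP1 rose most, by 0.82 and 0.56. XPOT, which exports transfer RNA from the nucleus, was named after its value was seen, and changed by -0.77. Of 7 cytosolic elongation factors 1 fell and 0 rose, EEF1A2, a tissue-restricted form of the factor that brings charged transfer RNA to the ribosome, which fell at least 3.63-fold with 5.49 taken as the treated level. Of 11 mitochondrial translation factors 3 fell and 1 rose (median -0.06), with MRRF at -0.59, GFM1 at -0.36 and MTIF3 at 0.23.

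Transcripts of the amino acid response list were mostly lower with MI-389: 22 of 25 genes fell and 1 rose, with a median of -1.86. Of all genes 15.7% fell and 18.4% rose. The list was chosen with earlier results of these data known. ATF4 itself went from 12.18, 12.20 and 12.18 to 10.84, 10.83 and 10.69, a change of -1.40 (SE 0.06). ASNS, asparagine synthetase, went from 11.43, 11.32 and 11.32 to 8.37, 8.46 and 8.43, a change of -2.94 (SE 0.06), and the pseudokinase gene TRIB3 and the transcription factor gene ATF5 changed by -4.17 and -3.99. DDIT3, the transcription factor CHOP, fell at least 1.79-fold with 5.49 taken as the treated level. EIF2AK4, the kinase that senses uncharged transfer RNA, changed by 0.11 (interval -0.06 to 0.27), and ALDH18A1, of proline synthesis, rose by 0.22. Of 14 genes of the unfolded protein response 7 fell and 3 rose (median -0.17). MYC changed by -0.06 (interval -0.21 to 0.08). Among the synthetases, the largest changes, those of WARS1, AARS1 and CARS1, were smaller than that of ASNS.

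**Figure D5:**
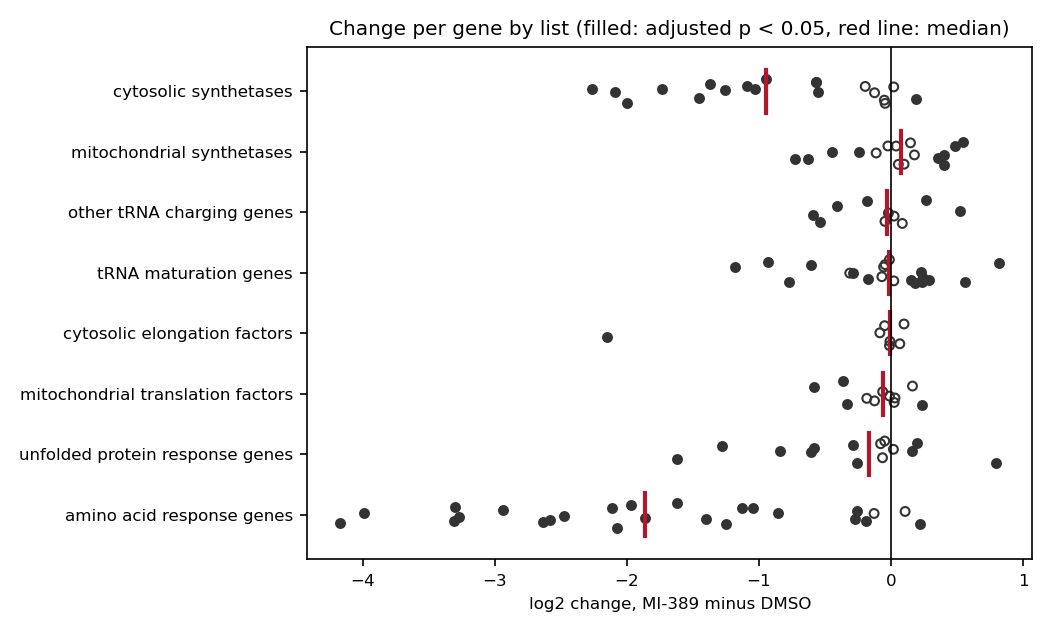
Log2 change of every measured gene by list, filled where the adjusted p was under 0.05, with a red line at the median. The cytosolic synthetases centre on -0.95 and the amino acid response on -1.86, and the other 6 lists have medians between -0.17 and 0.08.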

How the data were processed

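The authors' deposited table gives log2 values. The authors used RMA and limma, per the submitters' processing notes, and their versions, settings and genome build were not stated in those notes. Of 49386 probe sets 93 controls were left out. Symbols came from the platform annotation, updated by Entrez ID through RefSeq (GRCh38.p14); 45253 probe sets had 1 gene, 1327 several and 2713 none, and 45172 IDs matched. Where a gene had several probe sets, the brightest by its mean over all 6 arrays stood for it.

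Groups were compared in R 4.3.3 by limma 3.58.1 (functions lmFit and eBayes, two-sided, no covariate), with Benjamini-Hochberg adjustment over all genes or all probe sets and a threshold of 0.05. On simulated data of 18239 genes, with 50 changed at each size and 18039 unchanged, this recovered 44% of changes of 0.25, 98% of 0.5 and 100% of 1 or 2, with 14 false calls. Far fewer genes were changed there than were called in the data, so these shares need not hold for the data. No sequencing depth applies to arrays, and their number limits the precision. Pairs used per-array log2 ratios and an exact permutation test.

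The members and lists were chosen with earlier results of these data known. Named in full are up to 6 members per class and direction with the largest called changes, the pairs with the 3 largest and 2 smallest differences and the measured scaffold; outside the members, ATF4, ATF5, DDIT3, TRIB3, ASNS, EIF2AK4, MYC and up to 2 genes per direction and list.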

Additional observations from a re-analysis of the deposited data

How the results depend on the processing

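The alternatives were a common array median, a further quantile normalisation, centring on the spike-ins, leaving out genes under the 40th percentile, the replicate number as a block, trend and robust variance, array weights, each array left out, thresholds of 0.01 and of a 1.2-fold change (treat), the mean of all probe sets and taking probe sets with the suffixes _x_at, _s_at or _a_at last. Over these the cytosolic class counted 12 to 15 falls, other than the 18 with spike-in centring, and the pairs with a lower cytosolic change numbered 13 or 14. All genes counted 12453 calls with spike-in centring and 2457 with treat, against 6214, and with treat 4 mitochondrial synthetases passed, 1 higher and 3 lower. Leaving out each array gave 5216 to 6160 genes, 13 to 14 cytosolic, 8 to 9 mitochondrial and 56 to 61 probe set calls. With spike-in centring 7 members turned sign: QARS1 -0.23, RARS1 -0.064, EARS2 -0.21, IARS2 -0.15, PARS2 -0.11, RARS2 -0.20 and YARS2 -0.075, as the same 0.25 is taken from every gene. Outside that, QARS1 stood at -0.033 with the mean of all probe sets, and with each array left out it ranged from -0.0070 (without MI-389 replicate 2) to 0.050, and NARS2 from -0.066 to 0.040 (without MI-389 replicate 3). With the suffixes _x_at, _s_at or _a_at last, FARSB stood at 0.049 and WARS1 at 0.0051. Each was read there by a probe set below 5.49, and the tryptophan pair turned to 0.66.

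The labels do not say whether equal replicate numbers pair the samples. Deviations from the group means correlated over genes at -0.20, 0.02 and -0.14 for equal numbers. For unlike numbers the correlations ran from -0.04 to 0.20. Deviations within a group depend on each other, so these values cannot decide the matter. With the replicate block 5725 genes were called, with 13 cytosolic, 9 mitochondrial and 60 probe set calls, and RARS1 was the member that lost its call (adjusted p = 0.0585).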

Other observations

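Of the probe sets that name a synthetase beside another gene, 6 were not used above. The 1 shared by TARS2 and EMX1 was higher by 0.34 (SE 0.06, adjusted p = 0.00119 by limma over all probe sets). The pair shared by VARS2 and GTF2H4 changed by 0.09 and -0.04, the pair shared by SARS2 and FBXO17 by -0.10 and -0.02, and the 1 that names HARS1 with ATP13A5 and VSIR by 0.13, and none of these 5 passed the threshold of 0.05.

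TARS3, the cytosolic threonine enzyme of a separate gene, which was not among the members, went from a mean log2 value of 5.54 to 5.49 under the inhibitor (adjusted p = 0.676 by limma). Both means lay close to the background mark of 5.49, so a fall could hardly be seen. TARS3 was named after its value was seen. In the same arrays TARS1 fell by 1.26 on the log2 scale.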
